A study of Canis lupus familiaris with 12 samples.

Results

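HU-HSA-3 and HU-HSA-2, 2 canine hemangiosarcoma (HSA) cell lines, were compared with each other in medium that held 25 mM glucose. The libraries labelled with glucose were chosen, 3 of each line, which makes 6 of the 12 mRNA-seq libraries. Of the 30951 genes listed, the 11793 that passed a filter on low counts were tested. All 12 libraries were made after 48 h in DMEM with serum, and the other 6 came from the same lines kept at 0 mM glucose. HU-HSA-2 was derived from the splenic tumor of a castrated male toy poodle, and HU-HSA-3 from that of a spayed female flat coated retriever. The labels name no engineered change in either line. With 1 line for each dog, and the counts of each line in a separate table, the line cannot be told apart from the dog, its breed and sex, or the handling of its samples. The cultures were grown in triplicate, but nothing says that the 3 were separate experiments, so p-values measure only the spread between these libraries.

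Hemangiosarcoma is a malignant tumor of cells with endothelial features that is common in the dog spleen. Endothelial cells line blood vessels and carry the adhesion molecule CD31, the VEGF receptor KDR and von Willebrand factor. Cells that run short of nutrients translate the transcription factor ATF4, which raises genes for amino acid synthesis and import, redox balance and one-carbon metabolism. These genes are also expressed at some level in fed cells, which is the state compared here.

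Totals of the expected counts lay between 10650944 and 12838688 per library at 25 mM glucose. Between 14689 and 15066 genes had a count in the HU-HSA-2 libraries and between 13556 and 13825 in those of HU-HSA-3. The common biological coefficient of variation, edgeR's measure of spread between libraries, was 5.05% within HU-HSA-3 and 4.89% within HU-HSA-2.

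The lines differed in most of the genes they expressed. Of the 11793 genes tested, 9417 (79.9%) had an adjusted p-value (Benjamini-Hochberg) under 0.05 in the quasi-likelihood test of edgeR. Of these, 4598 (39.0% of those tested) were higher in HU-HSA-3 and 4819 (40.9%) were lower. The CPM values (counts scaled to library size) of the 3 and 3 libraries did not overlap for 9532 genes (80.8%). A log2 fold change beyond 1 was reached by 3323 of the genes past the threshold (28.2% of those tested), with 1203 higher and 2120 lower in HU-HSA-3. All folds below are HU-HSA-3 over HU-HSA-2, so a negative log2 value means a lower level in HU-HSA-3.

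**Figure D1:**
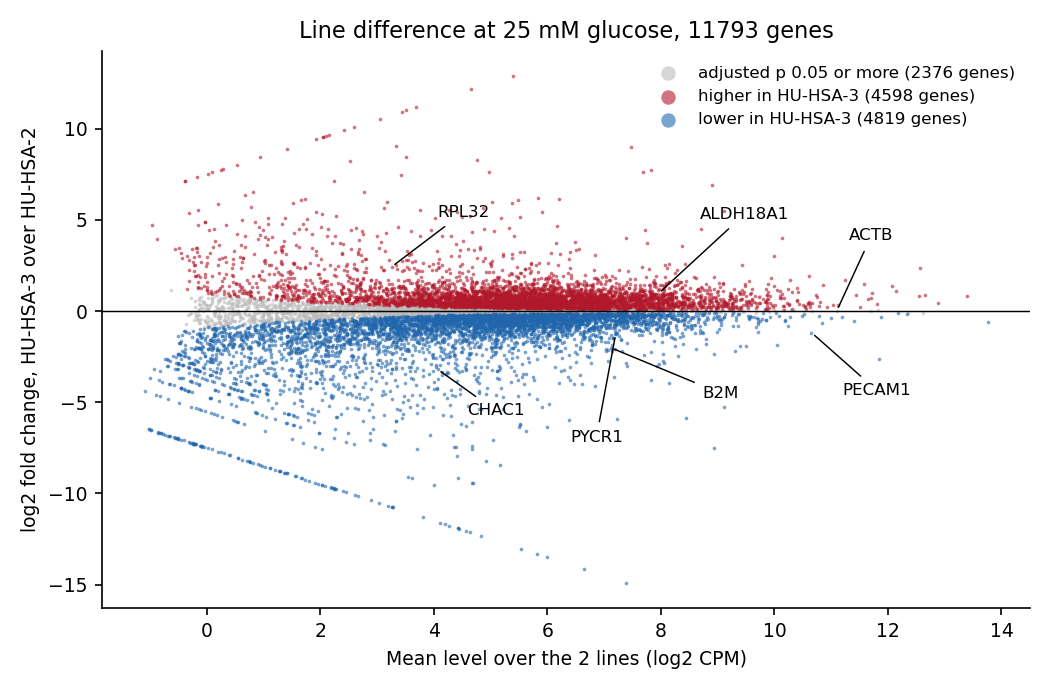
The log2 fold change of HU-HSA-3 over HU-HSA-2 (vertical axis) is plotted against the mean level over both lines in log2 CPM (horizontal axis) for each of the 11793 genes tested at 25 mM glucose. Red points are the 4598 genes higher in HU-HSA-3, blue points the 4819 lower, and grey points the 2376 that did not pass the threshold. Points on the straight diagonals are genes without a count in one line, whose fitted fold is set by the level in the other line.

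Most differences were small, and the large ones were mostly lower levels in HU-HSA-3. The median size of the log2 fold change was 0.57 over all genes tested, against a median standard error of 0.09. Up to a size of 1, calls after TMM scaling were more often higher in HU-HSA-3, with 1680 higher and 1352 lower up to 0.5, and 1715 higher and 1347 lower from 0.5 to 1. Beyond 1 the order was the other way round. Between 1 and 2 there were 845 higher and 1121 lower genes, between 2 and 4 there were 241 and 625, and beyond 4 there were 117 and 374. Only 5 genes with a fitted size beyond 1 missed the threshold. The order up to 1 depended on the scaling. These calls were 3395 higher and 2699 lower with TMM and 3100 and 2977 with upper-quartile scaling, and the lower ones were in the majority on the TPM scales, with 2779 higher and 3414 lower on log2(TPM + 1) and 2615 and 3048 on log2(TPM + 0.1). Beyond 1, lower calls outnumbered higher ones under the main and the 5 other settings run for this. There were 1203 higher and 2120 lower with TMM, and 737 and 1939 on log2(TPM + 1). None of these settings removed genes absent from one line. With at least 10 counts in every library, 2200 genes were called and beyond 1, and their split by direction was not read.

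The largest of these sizes are not measured folds, because 23 of the genes tested had no count in any HU-HSA-2 library and 112 had none in any HU-HSA-3 library. With these genes set to the lower bound that 3 counts per library give, 108 genes were beyond 4 in the direction of HU-HSA-3 and 312 in that of HU-HSA-2. The median size over all genes was again 0.57.

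**Figure D2:**
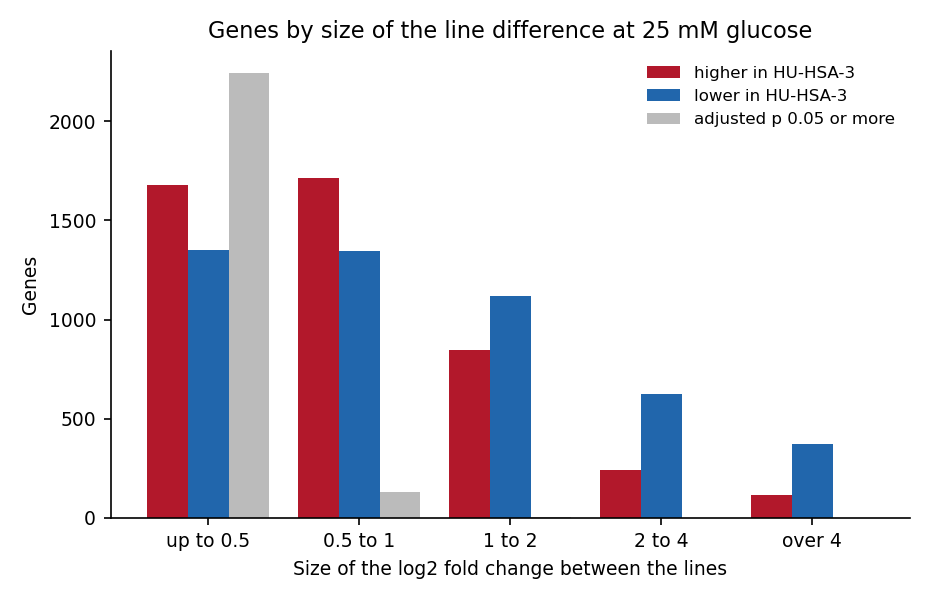
Bars count genes by the size of their log2 fold change between the lines at 25 mM glucose, from up to 0.5 to over 4. Red bars are genes higher in HU-HSA-3, blue bars genes lower in HU-HSA-3, and grey bars genes that did not pass the threshold. After the TMM scaling plotted here, the red bar is the taller of the coloured pair up to a size of 1, an order that turned on the TPM scales, and the blue bar is the taller in the 3 classes beyond it.

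The direction of the calls also moved with the level of the gene. The genes were put into 4 classes of equal size by mean log2 CPM over the same 6 libraries. Few or no counts in one line pull a gene towards a lower class and also make its fold large. Genes without a count numbered 112 in HU-HSA-3 and 23 in HU-HSA-2. The shares by class are therefore partly built in and are a description only. In the lowest class, up to 3.04 log2 CPM, 28.2% of the calls were higher in HU-HSA-3, and 57.3% of all its genes were both called and beyond 1. In the middle classes 43.5% and 56.2% of the calls were higher in HU-HSA-3. In the highest class, from 6.19 log2 CPM upwards, this was 64.1%, with 14.3% of the genes called and beyond 1. With upper-quartile scaling the shares of the lowest and highest class were 26.1% and 58.7%, and on log2(TPM + 1) they were 25.1% and 52.8%. The share of the class just under the highest fell to 49.9% and 43.4%. Over 5 classes of equal size by relative effective length, the share of genes called ran from 75.7% in the shortest to 83.8% in the longest.

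The sets of genes expressed in each line were largely shared. A level of at least 1 TPM, a unit scaled for gene length, was reached in all 3 libraries by 10570 genes in HU-HSA-3 and by 11179 in HU-HSA-2. The 10237 genes in both sets were 96.8% of those of HU-HSA-3 and 91.6% of those of HU-HSA-2. Of the 100 genes with the highest mean TPM in each line, 84 were shared.

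Genes that were more than 4-fold apart made up a small part of each line's mRNA. The 358 genes past the threshold that were over 4-fold higher in HU-HSA-3 took 3.17% to 3.36% of the counts in its libraries and 0.482% to 0.509% in those of HU-HSA-2. The 999 genes over 4-fold lower in HU-HSA-3 took 0.455% to 0.464% of the counts in HU-HSA-3 and 4.00% to 4.24% in HU-HSA-2. These shares describe the genes chosen by that fold and are not a test.

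Genes seen in one line alone were more numerous in HU-HSA-2. At least 1 TPM in all 3 libraries of one line and no count in the 3 libraries of the other was found for 111 genes of HU-HSA-2 and for 19 genes of HU-HSA-3. The mean level was at least 10 TPM for 30 of the 111 and for 5 of the 19, and the highest mean was 495 TPM in HU-HSA-3 and 454 TPM in HU-HSA-2. A count of 0 at these depths allows up to 3 counts per library, which is 0.220 to 0.299 CPM. In the libraries at 0 mM glucose, 59 of the 111 genes and 5 of the 19 again met both conditions, and 61 and 5 did without HU-HSA-3 replicate 1, a starved library that stood apart.

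Among genes past the threshold with whole counts in all 6 libraries at 25 mM, a mean of at least 10 CPM in the higher line and no overlap between the lines, the 2 with the largest fitted change in each direction are known by identifier alone. ENSCAFG00000029394 had 983, 798 and 836 counts in the HU-HSA-3 libraries and 0 in each HU-HSA-2 library, which makes it at least 338-fold higher in HU-HSA-3 against 3 counts per library. ENSCAFG00000017082 had 284, 245 and 275 counts in HU-HSA-3 and 0 in each HU-HSA-2 library, and was at least 104-fold higher. In the other direction, ENSCAFG00000012219 had 2111, 2874 and 2334 counts in HU-HSA-2 and 0 in each HU-HSA-3 library, and was at least 691-fold lower in HU-HSA-3. ENSCAFG00000012067 had 1477, 1732 and 1469 counts in HU-HSA-2, again with 0 in each HU-HSA-3 library, and was at least 443-fold lower. Each of these genes had 0 counts in the same line at 0 mM glucose too.

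A further 17 genes could be named, because the study pairs their identifiers with symbols. Of these, 3 were higher in HU-HSA-3, 10 were lower and 4 did not pass the threshold, and 13 had no overlap in CPM between the lines. That is 13 of 17 called, beside 79.9% of all genes tested. Their median size of change was 0.64 on the log2 scale, beside 0.57 over all genes. They were picked by the study for other experiments and do not sample the genome.

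**Figure D3:**
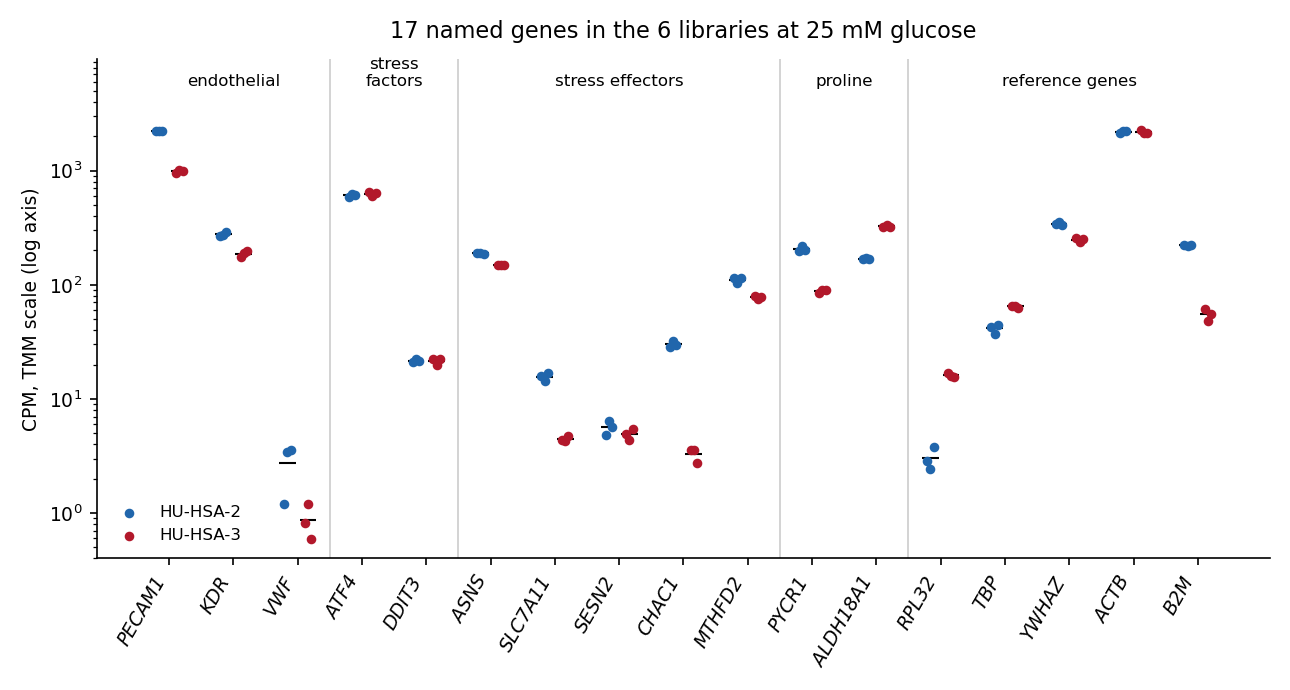
The level of each named gene in CPM (log axis) is shown for the 3 HU-HSA-2 libraries (blue) and the 3 HU-HSA-3 libraries (red) at 25 mM glucose, with a black bar at the mean of each line. Genes are ordered by role. The points of the lines overlap for ATF4, DDIT3, SESN2 and ACTB and lie apart for the other 13 genes, with the widest gaps for CHAC1 and RPL32.

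The endothelial markers were all lower in HU-HSA-3. This holds for 3 of 3 genes, beside 40.9% of all genes tested that were lower. PECAM1 (ENSCAFG00000011740), which encodes CD31, was at 953, 1006 and 998.5 CPM in the HU-HSA-3 libraries and at 2244, 2231.5 and 2224 CPM in the HU-HSA-2 libraries. The lines were far apart and each was tight. PECAM1 was 2.27-fold lower in HU-HSA-3, a log2 fold change of -1.18 ± 0.04 (SE) with an adjusted p of 8.39e-30. Even so it was abundant in both lines, with a mean TPM above that of 97.9% of the expressed genes in HU-HSA-3 and 99.2% in HU-HSA-2.

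KDR (ENSCAFG00000002079), the main VEGF receptor of endothelial cells, was at 174, 191 and 197 CPM in HU-HSA-3 and at 269, 276 and 288 CPM in HU-HSA-2. The groups did not overlap, and the fold was 1.48, a log2 fold change of -0.57 ± 0.05 (SE) with an adjusted p of 1.98e-14. By mean TPM it lay above 77.0% of the expressed genes in HU-HSA-3 and 86.3% in HU-HSA-2.

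VWF (ENSCAFG00000015228), the clotting glycoprotein that endothelial cells store, was close to the floor in both lines. It had 9, 12 and 6 counts in the HU-HSA-3 libraries and 14, 47 and 40 in those of HU-HSA-2. On the CPM scale the lowest HU-HSA-2 library, at 1.2028, only just cleared the highest HU-HSA-3 library, at 1.1953. On the TPM scale the lines overlapped, with 0.26 TPM in HU-HSA-3 replicate 2 and 0.22 TPM in HU-HSA-2 replicate 1. The log2 fold change was -1.65 ± 0.39 (SE) with an adjusted p of 2.45e-04 and a 95% interval from -2.45 to -0.86. Measured against their label as tumor cells of endothelial type, both lines thus had abundant PECAM1 and KDR and little VWF. Other endothelial markers and markers of fibroblasts, epithelium and leukocytes were not read here, since their identifiers could not be matched to symbols.

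Neither of the 2 stress transcription factors passed the threshold in the fed lines. ATF4 (ENSCAFG00000001324) was at 651, 600 and 640 CPM in HU-HSA-3 and at 593, 620 and 614 CPM in HU-HSA-2. The groups overlapped, the log2 fold change was 0.05 with a 95% interval from -0.04 to 0.13 and an adjusted p of 0.278, and its sign turned under upper-quartile scaling and on the TPM scale. ATF4 passed in 3 alternatives that did not share a sign, at -0.11 on both TPM scales (adjusted p 0.0438 and 0.0444 by limma) and at 0.09 without HU-HSA-3 25 mM replicate 2 (adjusted p 0.0475 by edgeR). DDIT3 (ENSCAFG00000030112), which encodes the factor CHOP that ATF4 raises under prolonged stress, was at 22.4, 19.8 and 22.6 CPM in HU-HSA-3 and at 20.9, 22.4 and 21.4 CPM in HU-HSA-2. These overlapped as well, with a log2 fold change of 0.002 (95% interval -0.19 to 0.20, adjusted p 0.985) whose sign also turned with the scaling. The intervals leave room for differences of up to 0.13 for ATF4 and 0.20 for DDIT3 on the log2 scale.

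Of the 5 stress effector genes, 4 were lower in HU-HSA-3, by unequal amounts, and SESN2 did not pass the threshold. Of all genes tested, 40.9% were lower. CHAC1 (ENSCAFG00000009414), an enzyme that breaks down glutathione, had the widest gap of the named genes. It was at 3.57, 3.59 and 2.74 CPM in HU-HSA-3 and at 28.4, 32.2 and 29.7 CPM in HU-HSA-2, a 9.11-fold difference. Its log2 fold change was -3.19 ± 0.14 (SE) with an adjusted p of 4.91e-25, larger in size than that of 93.8% of the genes tested.

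SLC7A11 (ENSCAFG00000003749), the cystine importer that feeds glutathione synthesis, was at 4.39, 4.28 and 4.69 CPM in HU-HSA-3 and at 15.98, 14.2 and 16.7 CPM in HU-HSA-2. All HU-HSA-3 libraries were thus lower than all HU-HSA-2 libraries, by 3.49-fold (log2 fold change -1.80 ± 0.15 SE, adjusted p 1.03e-14). MTHFD2 (ENSCAFG00000008716), a mitochondrial enzyme of one-carbon metabolism, was at 79.9, 75.3 and 78.5 CPM in HU-HSA-3 and at 115, 103 and 114 CPM in HU-HSA-2. It was 1.42-fold lower without overlap (log2 fold change -0.50 ± 0.06 SE, adjusted p 1.06e-10).

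ASNS (ENSCAFG00000002222), which makes asparagine, was at 148, 149 and 149 CPM in HU-HSA-3 and at 192, 189 and 188 CPM in HU-HSA-2. This 1.27-fold difference was small but wide of the spread, with a log2 fold change of -0.35 ± 0.05 (SE) and an adjusted p of 8.47e-09. SESN2 (ENSCAFG00000011842), a sensor of leucine and oxidative stress, was at 4.94, 4.38 and 5.47 CPM in HU-HSA-3 and at 4.81, 6.44 and 5.66 CPM in HU-HSA-2. The groups overlapped, and its log2 fold change of -0.20 did not pass the threshold (95% interval -0.59 to 0.19, adjusted p 0.339).

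The 2 enzymes of proline synthesis differed in opposite directions. ALDH18A1 (ENSCAFG00000008339), which takes the first step from glutamate, was at 319, 336 and 322 CPM in HU-HSA-3 and at 168, 170 and 169 CPM in HU-HSA-2. It was 1.92-fold higher in HU-HSA-3 (log2 fold change 0.94 ± 0.05 SE, adjusted p 2.51e-23). PYCR1 (ENSCAFG00000005906), a mitochondrial enzyme of the last step, was at 83.9, 89.5 and 90.5 CPM in HU-HSA-3 and at 198, 219 and 204 CPM in HU-HSA-2. It was 2.36-fold lower in HU-HSA-3 (log2 fold change -1.24 ± 0.05 SE, adjusted p 3.31e-25). Neither gene overlapped between the lines. On the TPM scale, which allows levels of different genes to be compared, HU-HSA-3 had 143 TPM of ALDH18A1 and 87.9 TPM of PYCR1. HU-HSA-2 had 84.4 and 234 TPM, so the order of the pair was opposite in the lines.

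The genes used as references in RT-qPCR passed the threshold about as often as all genes tested. Of the 5 genes, 2 were higher in HU-HSA-3, 2 were lower and 1 did not pass the threshold, beside 79.9% of all genes tested that passed it. Their log2 fold changes spanned 4.43. ACTB (ENSCAFG00000016020), which encodes the cytoskeletal beta actin, was the closest between the lines, at 2268, 2120 and 2157 CPM in HU-HSA-3 and at 2133.5, 2209 and 2242 CPM in HU-HSA-2. These overlapped, and the log2 fold change was -0.01 (95% interval -0.09 to 0.07, adjusted p 0.844), a value that came out between 0.021 and -0.19 under other settings and passed the threshold in 3 of them.

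B2M (ENSCAFG00000013633), the light chain of MHC class I molecules, was at 61.6, 48.5 and 55.2 CPM in HU-HSA-3 and at 223, 220.4 and 222 CPM in HU-HSA-2. It was 4.02-fold lower in HU-HSA-3, with a log2 fold change of -2.01 ± 0.06 (SE) and an adjusted p of 1.37e-28. Its level varied more among the HU-HSA-3 libraries than among those of HU-HSA-2, and every HU-HSA-3 library was far below every HU-HSA-2 library.

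TBP (ENSCAFG00000004119), which encodes the TATA-binding protein, was at 65.7, 65.6 and 62.5 CPM in HU-HSA-3 and at 42.8, 37.1 and 44.8 CPM in HU-HSA-2. It was 1.56-fold higher in HU-HSA-3 without overlap (log2 fold change 0.64 ± 0.07 SE, adjusted p 8.48e-11). YWHAZ (ENSCAFG00000000580), a 14-3-3 adaptor protein, was at 258, 237 and 251 CPM in HU-HSA-3 and at 341, 352 and 334 CPM in HU-HSA-2. It was lower in HU-HSA-3 without overlap, with a log2 fold change of -0.46 ± 0.05 (SE, adjusted p 1.26e-12). Part of the reads of ACTB and YWHAZ was shared with other genes, as their expected counts were not whole in any of the 6 libraries, so their values are less certain.

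The identifier given for RPL32 (ENSCAFG00000004821), a protein of the large ribosomal subunit, was at 16.8, 15.7 and 15.5 CPM in HU-HSA-3 and at 2.84, 2.42 and 3.80 CPM in HU-HSA-2. It was 5.36-fold higher in HU-HSA-3 (log2 fold change 2.42 ± 0.17 SE, adjusted p 1.29e-17). Its mean level was only 4.27 TPM in HU-HSA-3 and 0.800 TPM in HU-HSA-2, which is low for a ribosomal protein gene. Such genes have near-identical copies elsewhere in the genome, and whether this identifier holds the reads of the functional gene was not tested.

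The size, and in places the direction, of a line difference moved with the single reference gene it was set against. The log2 fold change of PECAM1 was -1.17 relative to ACTB, -1.82 relative to TBP and -3.60 relative to RPL32. Relative to B2M it was 0.83, a higher level in HU-HSA-3. ATF4, with a difference of 0.05 after TMM scaling, came out at -2.37 relative to RPL32, -0.59 relative to TBP, 0.06 relative to ACTB and 2.06 relative to B2M. The outermost values came from RPL32, whose identifier is in doubt, and from B2M. These are ratios of mRNA-seq values to a single gene, not RT-qPCR measurements. The study normalized its RT-qPCR to the geometric mean of several reference genes. Values relative to such a mean were not computed here.

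The line difference can be read again in the 6 libraries at 0 mM glucose, which share none with the comparison at 25 mM. One of them, HU-HSA-3 replicate 1, stood apart. Its median distance to the other HU-HSA-3 libraries at 0 mM, over 12233 genes in log2 CPM, was 0.229 to 0.233, where those were 0.0996 from each other. The main results at 0 mM are therefore also given without it. At 0 mM, 8177 of 11961 genes tested (68.4%) differed between the lines, and 8732 of 12241 did without that library. The coefficient of variation of the fit was 10.4% at 0 mM, 7.35% without that library, and 4.97% at 25 mM.

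Most line differences were there in both media. Of the genes called at 25 mM, 9328 were also tested at 0 mM, and 8935 of them (95.8%) had the same direction. Of these, 7378 passed the threshold at 0 mM as well, which is 79.1% of the 9328 and 92.3% of the 7992 genes called at 0 mM and tested in both media. Without HU-HSA-3 0 mM replicate 1, 96.3% had the same direction and 81.9% also passed, the latter being 91.3% of 8427 genes called at 0 mM. Of 3236 genes beyond 1 at 25 mM, 3212 had the same direction, and without that library 3269 of 3294. Only 73 genes passed the threshold in both media with opposite directions, and 97 without that library. Across the 11684 genes tested in both, the log2 fold changes had a Pearson r of 0.959 (0.954 over 11754 genes without that library), in libraries of the same lines and with genes that are not independent replicates.

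Distances between the lines were larger than those between the media. Between any HU-HSA-3 and any HU-HSA-2 library at 25 mM, the median distance over genes was 0.585 to 0.609 in log2 CPM. Between replicates of one line it was 0.0990 to 0.118 at 25 mM. At 0 mM the replicates of HU-HSA-2 were 0.125 to 0.131 apart. Those of HU-HSA-3 were 0.0996 apart, or 0.229 to 0.233 where replicate 1 was one of the pair. Between the media it was 0.163 to 0.274 within HU-HSA-3 (0.163 to 0.172 without replicate 1 at 0 mM) and 0.158 to 0.191 within HU-HSA-2. The median size of the fitted log2 fold change was 0.57 for the lines at 25 mM and 0.56 at 0 mM, beside 0.15 for glucose in HU-HSA-3 and 0.14 in HU-HSA-2. Without that library these medians were again 0.56 for the lines at 0 mM and 0.14 for glucose in HU-HSA-3. The comparisons of media share the 25 mM libraries with the comparison of the lines.

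**Figure D4:**
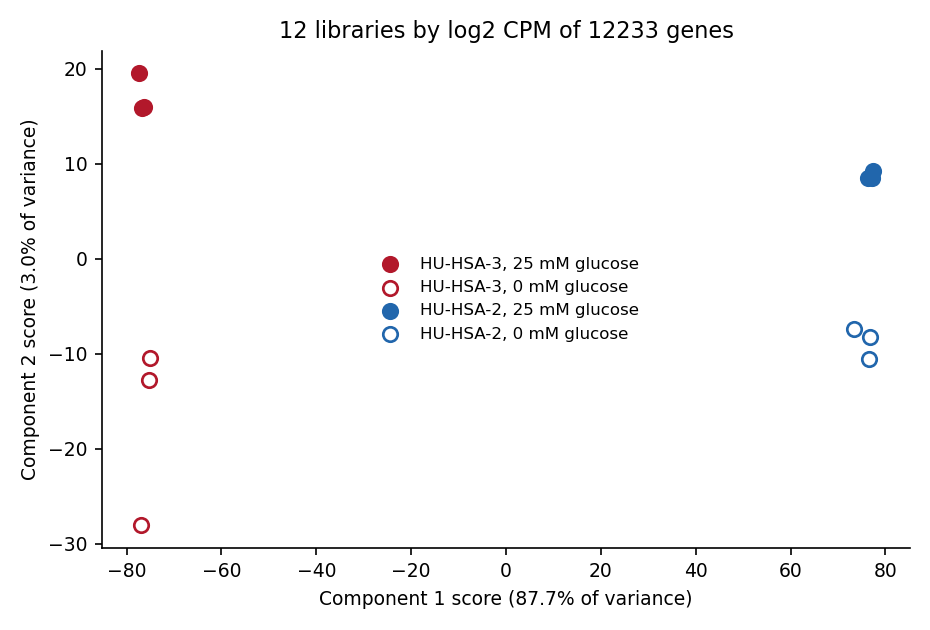
Scores of the 12 libraries on the first component (horizontal axis, 87.7% of the variance) and the second component (vertical axis, 3.0% of the variance) of log2 CPM over 12233 genes. Red circles are HU-HSA-3 and blue circles HU-HSA-2, filled at 25 mM glucose and open at 0 mM. The first component separates the lines, and the open red circle at the bottom is HU-HSA-3 0 mM replicate 1.

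The stress genes and PYCR1 stood out among the named genes in this respect. The difference between the lines itself changed between the media for 8 of the 17 named genes, beside 578 of 12233 genes tested (4.72%) in edgeR's quasi-likelihood test over all 12 libraries. Without HU-HSA-3 0 mM replicate 1, 993 of 12444 genes changed, and the same 8 named genes were among them. They were ATF4, DDIT3, all 5 stress effectors and PYCR1. CHAC1, lower in HU-HSA-3 at 25 mM, was at 70.2, 66.1 and 69.3 CPM in HU-HSA-3 and at 21.3, 24.8 and 19.1 CPM in HU-HSA-2 at 0 mM, where its log2 fold change was 1.66 ± 0.11 (SE), or 1.65 without that library. The order of the lines was thus opposite in the media, without overlap in either.

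SLC7A11, ASNS and MTHFD2 also had opposite directions, with log2 fold changes at 0 mM of 1.18, 1.24 and 0.50, each past the threshold. Without HU-HSA-3 0 mM replicate 1 these were 1.42, 1.20 and 0.49. ATF4, DDIT3 and SESN2, which did not pass at 25 mM, were higher in HU-HSA-3 at 0 mM by 1.39, 2.45 and 2.69, and by 1.34, 2.43 and 2.84 without that library. PYCR1 was lower in HU-HSA-3 in both media, by 1.24 at 25 mM and 0.54 at 0 mM, with or without that library, on the log2 scale. The endothelial markers were lower in HU-HSA-3 at 0 mM too, with log2 fold changes of -1.19 for PECAM1, -0.56 for KDR and -1.67 for VWF, and of -1.14, -0.46 and -1.82 without that library, each past the threshold. The change between the media did not pass the threshold for any of the 3, with all libraries or without that one.

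**Figure D5:**
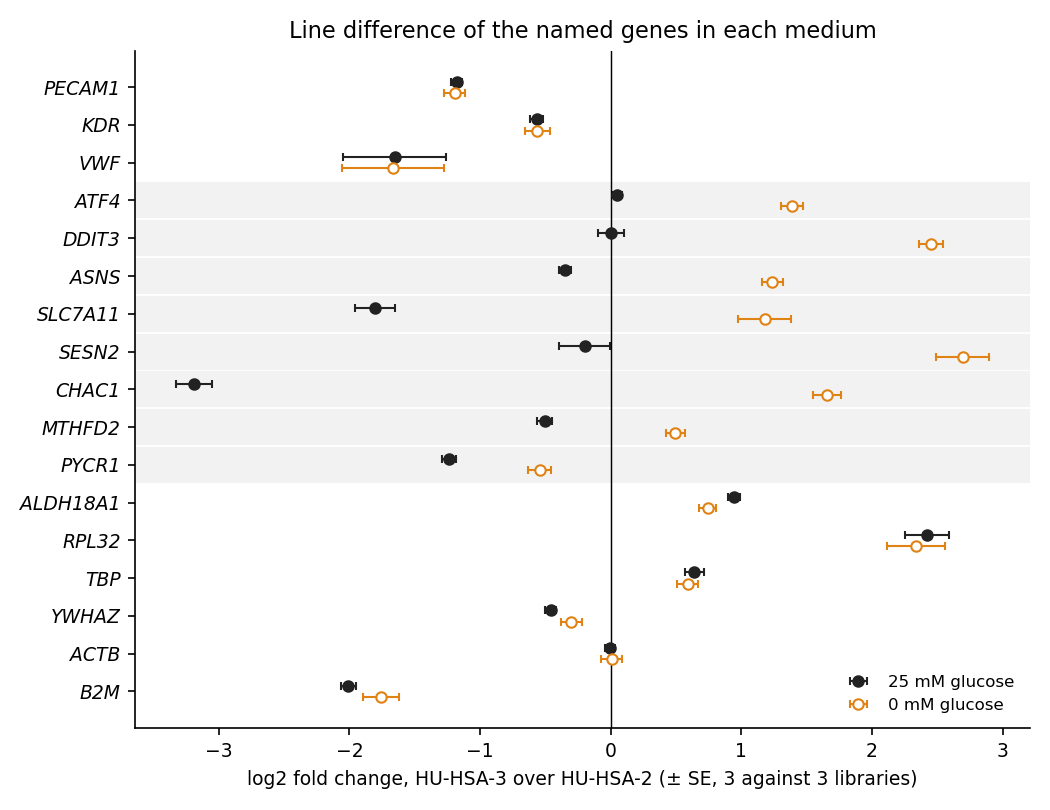
The log2 fold change of HU-HSA-3 over HU-HSA-2 (horizontal axis, with its SE as the bar) is shown for each named gene at 25 mM glucose (filled) and at 0 mM with all libraries (open orange). Grey bands mark the 8 genes whose line difference changed between the media past the threshold. In the bands the open circles lie to the right of the filled ones by 0.69 to 4.85. For the other 9 genes the change between the media did not pass the threshold.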

How the data were processed

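The authors aligned paired reads of stranded poly(A) mRNA libraries with STAR to the CanFam3.1 build and quantified genes with RSEM. The submitters' processing notes also name edgeR 3.42.0. Versions of STAR and RSEM, the annotation and the strand setting are not given in the sources used here. The deposited expected counts are unnormalized and divide shared reads between genes. The deposited TPM values are scaled for gene length and depth. Each line has its own tables. Tables were joined by Ensembl identifier. Of the expected counts in the 6 libraries, 97.7% were whole, and all were rounded.

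Counts were fitted in R 4.3.3 with edgeR 4.0.16 (filterByExpr, TMM, robust quasi-likelihood test, Benjamini-Hochberg adjustment over all genes tested, threshold 0.05). CPM are on the TMM scale of the 6 libraries of each medium. The SE is the size of the unshrunk change over the square root of F, and 95% intervals use it with the fit's degrees of freedom. No replicate pair agreed within sampling noise (chi-square over degrees of freedom 2.52 to 4.44). Precision is limited by counts and by 3 libraries per group. On simulated counts of 11601 genes, 191 of 200 changed genes were recovered and 10 unchanged genes were called.

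Named genes are 17 whose identifiers the study's primer list pairs with symbols (a result that needs another is not reported here) and, in each direction, the 2 with the largest change among genes past the threshold with a mean of at least 10 CPM in the higher line, no overlap and whole counts. The members, lists and tests were chosen with earlier results of these data known. The reference gene table holds 0 of the 30951 identifiers, so other gene and marker lists were not used, and no sequence was read. Alternatives were other scalings, filters and tests (DESeq2 1.42.0, and limma 3.58.1 on log2(TPM + 1) and log2(TPM + 0.1)), a replicate block, all 12 libraries in one fit, a gene length trend and each library left out. Leaving out HU-HSA-3 0 mM replicate 1, and splitting the calls of each scaling by size and level, were chosen after seeing the data.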

Additional observations from a re-analysis of the deposited data

Results flagged for a closer look

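For 8 named genes the difference between the lines was not the same in the 2 media, by edgeR's quasi-likelihood test of the difference itself over all 12 libraries with Benjamini-Hochberg adjustment. The value given is the log2 fold change of HU-HSA-3 over HU-HSA-2 at 25 mM glucose minus that at 0 mM, so a negative value means that HU-HSA-3 stood lower against HU-HSA-2 with glucose than without it. It was -4.85 ± 0.17 (SE) for CHAC1 (adjusted p 8.18e-13), -2.99 ± 0.30 for SLC7A11 (1.34e-05), -2.90 ± 0.28 for SESN2 (1.67e-06) and -2.45 ± 0.12 for DDIT3 (1.98e-10). It was -1.59 ± 0.09 for ASNS (adjusted p 9.54e-10), -1.34 ± 0.09 for ATF4 (7.80e-09), -1.002 ± 0.09 for MTHFD2 (8.44e-07) and -0.69 ± 0.10 for PYCR1 (3.47e-04).

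Without HU-HSA-3 0 mM replicate 1, the library that stood apart, the same differences were -4.83, -3.21, -3.03, -2.42, -1.54, -1.28, -0.98 and -0.68, each past the threshold. The study chose these genes for its work on glucose loss in these lines, so they are not independent evidence of a direction. The other 9 named genes did not pass, with all libraries or without that one. Of all genes tested, 578 of 12233 (4.72%) passed with all 12 libraries and 993 of 12444 without that one.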

How the results depend on the processing

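The count of 9417 genes past the threshold at 25 mM lay between 8285 and 10245 under other scalings, filters and tests, with one library left out between 9161 and 9380, and with the replicate block at 9320. Same-numbered libraries of the lines at 25 mM did not deviate together (correlations of deviations across genes -0.01, 0.02 and 0.001). No pairing by number was thus visible, which does not show how the cultures were handled. The replicate block gave 7871 calls in place of 8177 at 0 mM. Genes called and beyond 1 numbered 3323, and 2200 where every library had to hold 10 counts, a filter that removes genes absent from one line. Genes detected in one line alone numbered 34 at 0.5 TPM and 8 at 5 TPM in HU-HSA-3, in place of 19, and 41 at 5 TPM in HU-HSA-2, in place of 111. On the TPM scale the median of all genes moved by -0.15 (log2(TPM + 1)) and -0.17 (log2(TPM + 0.1)), and calls higher in HU-HSA-3 were 39.6% and 39.7% of all calls, in place of 48.8%. With upper-quartile scaling 4146 calls were higher in HU-HSA-3 and 5256 lower, in place of 4598 and 4819.

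Of 329 values of the named genes under alternatives, 309 had the same direction and lay on the same side of the threshold, 16 changed sign and 4 passed the threshold without a change of sign, all of them for ATF4, DDIT3 and ACTB, which did not pass at first. ATF4 was -0.033 with upper-quartile scaling and -0.11 on both TPM scales, where it passed (adjusted p 0.0438 and 0.0444 by limma). Without HU-HSA-3 25 mM replicate 2 it was 0.09 and passed (adjusted p 0.0475 by edgeR). DDIT3 was -0.080 with upper-quartile scaling, -0.037 with 10 counts in every library, -0.10 on both TPM scales and from -0.020 to 0.068 with one library left out. ACTB was 0.018 without a filter, 0.0030 with 12 libraries in one fit, 0.012 with the length trend removed and from -0.027 to 0.021 with one library left out. It passed the threshold at -0.09 with upper-quartile scaling and at -0.19 on both TPM scales. The cause was not tested. VWF was not fitted on the TPM scales, being under 1 TPM. Depth limits VWF, SESN2 and genes at 0 counts in one line, and intervals and bounds cover counting error or the spread of these libraries only.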
